A study of Mus musculus with 2 samples.

Results

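The 39 genes described here are known markers and signalling genes of brain endothelial cells, which line the vessels, and of mural cells, the pericytes and smooth muscle cells wrapped around them. They were listed by name under a rule that uses no measured value, although the list was drawn up with earlier results of these data known, and all 39 were matched by symbol among 55536 annotated genes. Brain endothelial cells seal the vessel wall with tight junctions and carry nutrients across it with dedicated transporters, which together form the blood-brain barrier. Neural cells release VEGF-A, which acts on endothelial receptors and drives vessel growth into the cortex, and endothelial cells release PDGF-B, which recruits pericytes that carry its receptor. In the rodent cortex the vessel network still grows and branches in the first days after birth.

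The measurements came from 2 male B6CASTF1/J mice, first-generation hybrids of C57BL/6 and CAST, at an age of 4 days. Each animal gave 1 total RNA library from the left cerebral cortex, made from 300 ng of RNA after reduction of ribosomal RNA and with ERCC spike-in RNAs added. The labels call them biological replicates 1 and 2 and describe a separate animal and tissue sample for each, but give both the same donor entry. They are counted as 2 animals here, so each SD with n = 2 rests on that reading of the labels. No treatment, mutant or other age was sampled, so there was no contrast between conditions. Depth was 26897687 expected counts for replicate 1 and 29511737 for replicate 2. Levels are given as TPM, which sets the transcripts of a gene, corrected for length, against the sum over all transcripts of the library, and means carry the SD over the 2 libraries (n = 2).

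Most of the vascular genes were present at modest levels. A TPM of 1 or more in both libraries, taken as detected, was reached by 35 of the 39 genes (89.7%), against 59.4% of all 22028 protein-coding genes. The median of the 39 genes was 7.61 TPM in replicate 1 and 7.36 in replicate 2. The 13084 detected protein-coding genes had a median mean level of 17.6 TPM, and 9 of the 39 genes lay above it. The 4 genes that missed the threshold in at least 1 library were Angpt2, Ly6a, Myh11 and Esm1. When the 39 genes were ordered by mean level, the ranges over the 2 libraries overlapped in 29 of 38 neighbouring pairs, so most of the fine order is not resolved. Since the tissue was not sorted, fewer cells of a type and less RNA per cell cannot be told apart.

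**Figure D1:**
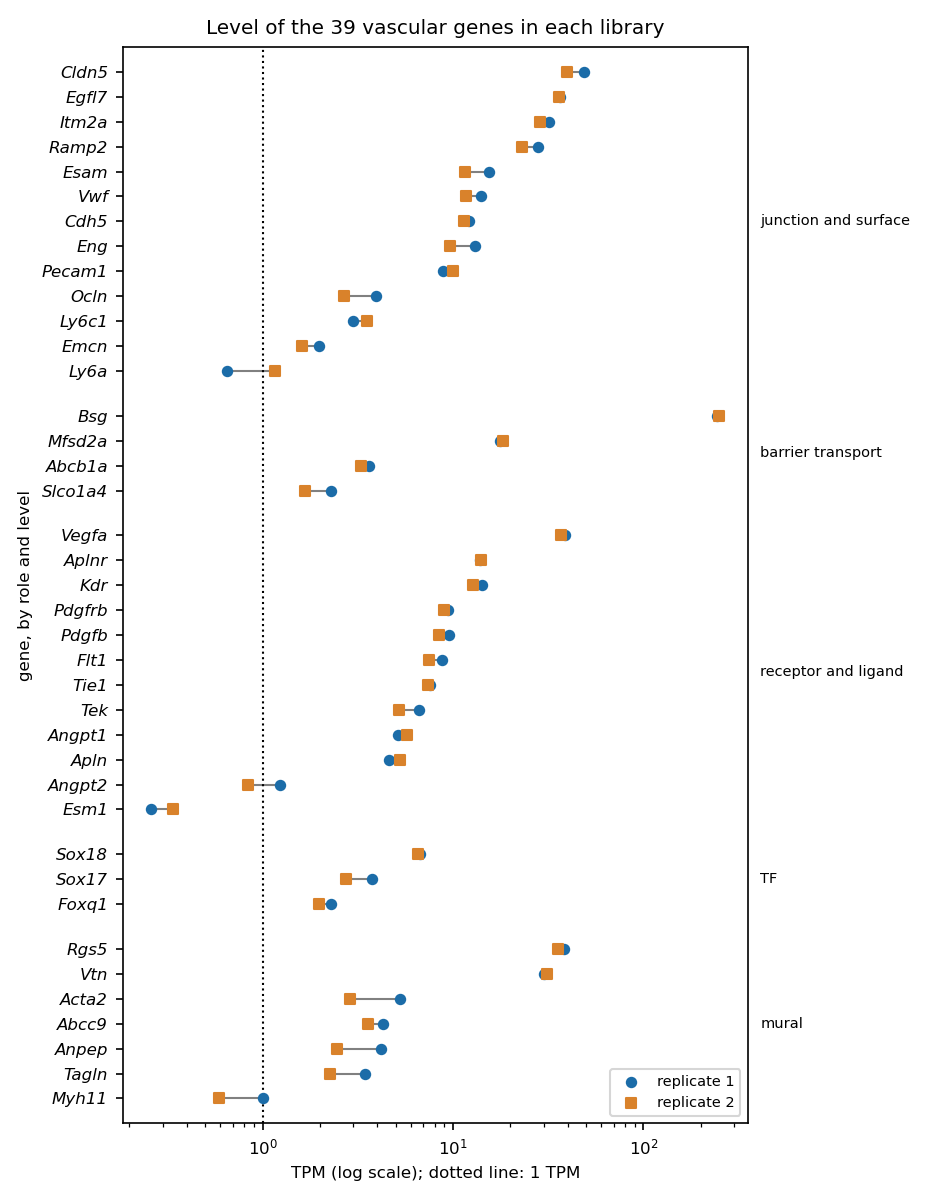
TPM on a log scale of each of the 39 genes in replicate 1 (circles) and replicate 2 (squares), grouped by role, with a grey line joining the 2 libraries and a dotted line at 1 TPM; Pdgfrb is drawn with the receptors. Bsg stands alone at 243 to 250 TPM, most genes lie between 1 and 50 TPM, and Esm1 is lowest at 0.26 and 0.34 TPM.

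Among the 13 endothelial junction and surface genes, Cldn5 was the most abundant. Cldn5 (ENSMUSG00000041378.2, chr16:18776847-18778262, mm10, plus strand) encodes claudin-5, the main claudin of brain endothelial tight junctions. It measured 48.52 TPM in replicate 1 and 39.93 in replicate 2, and no other gene of this group had a library within that range. Egfl7, which encodes a protein that endothelial cells secrete, measured 36.46 and 35.94 TPM. Much of this lay in transcripts annotated as retaining introns, so its level over coding transcripts was lower. Egfl7-206, Egfl7-213 and Egfl7-214 took 20.75%, 17.18% and 15.78% of it in replicate 1. In replicate 2 they took 13.95%, 12.82% and 16.16%. The transmembrane protein gene Itm2a measured 31.92 and 28.78 TPM, above Ramp2, the partner of the adrenomedullin receptor, at 28.08 and 23.06 TPM. In a second transcript table deposited by the authors, the other quantification, this order was less clear. Cldn5 measured 64.51 and 54.34 TPM there, Egfl7 58.22 and 53.05, and Ramp2 56.41 and 55.02. Egfl7 in replicate 1 and Ramp2 in both libraries fell within the Cldn5 range. Itm2a, at 39.23 and 34.86 TPM, was below Ramp2.

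A cluster of general endothelial markers followed well below Cldn5. Esam, an adhesion molecule of endothelial junctions, measured 15.38 and 11.53 TPM, and Vwf, the von Willebrand clotting factor, measured 14.07 and 11.67 TPM. The main coding transcript Vwf-203 took 38.47% and 43.04% of the Vwf TPM, which is 5.41 and 5.02 TPM. The noncoding Vwf-209 held 3.95 and 2.86 TPM on 23.99 and 19.70 counts. In the other quantification Vwf measured 13.12 and 10.76 TPM, well below Esam at 26.43 and 23.64 TPM. Cdh5, the VE-cadherin of adherens junctions, measured 12.18 and 11.49 TPM. Eng, the TGF-beta co-receptor endoglin, and Pecam1, the adhesion molecule CD31, are among the genes most used to mark endothelium. Eng measured 13.06 and 9.68 TPM and Pecam1 8.87 and 10.05 TPM, so their ranges overlapped and their order is not resolved. Ocln, which encodes the tight junction protein occludin, was lower at 3.94 and 2.68 TPM.

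The lowest junction and surface genes were counted on few reads. Ly6c1 measured 3.00 and 3.55 TPM, and Emcn, the sialomucin endomucin of veins and capillaries, 1.99 and 1.62 TPM. Ly6a, the stem cell antigen Sca-1, had 8 and 11 counts and measured 0.65 and 1.16 TPM. Ly6c1 shares 46.8% of its 31-base words with other annotated genes, most with Ly6c2, and Ly6a shares 31.9%, so the split of reads within the Ly6 family is uncertain.

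Egfl7 also hosts a microRNA that is known for its high expression in endothelial cells, miR-126a, and the mature sequence is shown because the host transcript that contains it was measured here. The seed, bases 2 to 8, is in capitals. It is taken from RefSeq (GRCm38.p6, chr2:26591402-26591423, plus strand).
mmu-miR-126a-3p: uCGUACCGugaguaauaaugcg
The hairpin (chr2:26591357-26591429) lies inside an exon of Egfl7-206, which is annotated as retaining an intron and took 20.75% of the Egfl7 TPM in replicate 1 and 13.95% in replicate 2. The other quantification gave this transcript 17.14% and 13.17%. The hairpin's own gene row had 0 counts in both libraries, which allows up to 3 counts in each, and mature microRNAs were not measured by these libraries. Egfl7 exons overlap Gm20532 and Mir126a on the same strand, and Egfl7 shares 6.62% of its 31-base words with other genes, most with Gm20532, so some of its reads cannot be assigned with certainty. They also overlap Agpat2 and Mir126b on the other strand, and whether counting used strand is not given in the sources used here.

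The barrier transport genes spanned a wide range. Bsg (ENSMUSG00000023175.15, chr10:79704491-79711969, plus strand), which encodes basigin, a partner protein of lactate transporters, measured 242.83 and 250.47 TPM. It lay above 97.9% of detected protein-coding genes. Basigin marks barrier endothelium at the protein level but is also made by neurons and glia, so its TPM does not measure vessels alone. Mfsd2a, the lysophospholipid transporter that carries docosahexaenoic acid into the brain and restrains transcytosis, measured 17.69 and 18.31 TPM. Abcb1a, the efflux pump P-glycoprotein, measured 3.62 and 3.29 TPM, and Slco1a4, an organic anion transporter, 2.28 and 1.67 TPM. Abcb1a shares 23.3% of its 31-base words with other genes, most with its paralog Abcb1b, and Slco1a4 shares 5.03%, most with Slco1a5.

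The 2 quantifications did not give Bsg the same isoforms. Bsg-205, the short form with a coding length of 819 bases without the stop codon, took 88.07% and 94.28% of the Bsg TPM in the table used for levels, and Bsg-201, the long form with 1167 coding bases, took 2.10% in each library. The other quantification gave Bsg-205 48.99% and 35.99% and Bsg-201 36.59% and 37.84%. Bsg-202, with 654 coding bases, differed too, at 8.42% and 2.15% against 13.00% and 24.65% in the other quantification. The long form differs by a 348-base coding exon (chr10:79708697-79709044) that adds an immunoglobulin domain and is known from photoreceptors. Its junction is shown because the share of the long form differed between the sources: the first 102 bases of the exon are in capitals after 18 flanking coding bases, and the short form joins the same 18 bases to the next exon.
Bsg-201: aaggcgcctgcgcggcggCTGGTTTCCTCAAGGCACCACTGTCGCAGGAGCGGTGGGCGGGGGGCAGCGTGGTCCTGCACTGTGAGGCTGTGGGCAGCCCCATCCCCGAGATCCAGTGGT
Bsg-205: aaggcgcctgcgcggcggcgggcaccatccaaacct
Bsg was examined by transcript after its values were seen, and no reads were used here that could settle the split.

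In the VEGF system the ligand gene exceeded each receptor gene in total TPM. Vegfa (ENSMUSG00000023951.17, chr17:46016993-46032369, minus strand), made in brain largely by neural cells, measured 38.82 and 36.80 TPM. Kdr, the main signalling receptor VEGFR2, measured 14.19 and 12.78 TPM. Flt1 (ENSMUSG00000029648.13, chr5:147561604-147726011, minus strand), the receptor VEGFR1 that binds VEGF-A tightly and limits its action, measured 8.78 and 7.46 TPM. Transcripts with no annotated coding sequence held 54.23% and 59.77% of the Vegfa TPM, so its excess is smaller over coding transcripts. The main coding transcript Vegfa-202 measured 14.72 and 13.83 TPM, close to Kdr-201 at 12.89 and 11.86 TPM. Flt1 was lower than Kdr in both libraries, by a mean log2 ratio of -0.73 ± 0.06 (SD, n = 2). The placental growth factor gene Pgf, a ligand of Flt1 but not of Kdr, measured 2.56 and 2.61 TPM, a log2 difference from Vegfa of 3.82 ± 0.07 on the scale of TPM + 0.1.

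Transcripts of Flt1 were divided almost evenly between the full receptor and a short form. Flt1-202, with 3999 coding bases, took 40.45% of the Flt1 TPM in replicate 1 and 36.89% in replicate 2. Flt1-203, with 2064 coding bases, took 38.61% and 38.37%. The short form ends within an intron of the full gene and encodes the soluble decoy receptor, which lacks the membrane anchor and the kinase. The other quantification gave 41.39% and 38.06% for the full form and 39.39% and 39.88% for the short form, so the forms held close shares in both sources and both animals. Transcripts with no annotated coding sequence took the remaining 20.94% and 24.74%.

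The sequences below show where the Flt1 forms part. Both share 18 coding bases in lower case; the short form then reads on into 92 coding bases of its own, in capitals (GENCODE M21, chr5:147639133-147639224, minus strand), while the full form joins the next exon.
Flt1-203: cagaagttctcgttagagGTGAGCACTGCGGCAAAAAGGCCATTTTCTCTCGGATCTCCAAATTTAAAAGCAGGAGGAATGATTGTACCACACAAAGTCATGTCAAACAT
Flt1-202: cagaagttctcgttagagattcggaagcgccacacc

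Among coding Vegfa transcripts the form with the 132-base exon predominated. This exon (chr17:46020991-46021122, minus strand) encodes most of the heparin-binding part of VEGF164 and is skipped in the freely diffusing VEGF120. Transcripts that held it without the 72-base exon of the longer forms took 37.91% and 37.57% of the Vegfa TPM, and transcripts that lacked both took 7.87% and 2.28%. The other quantification gave 36.89% and 41.36% with the exon and 14.73% and 9.30% without both. Transcripts with both exons, as in VEGF188, were listed at 0 by both sources. Transcripts with no annotated coding sequence, all annotated as retaining introns, took 54.23% and 59.77%. The exon is shown in capitals between 18 flanking coding bases, above the same junction without it.
Vegfa-202: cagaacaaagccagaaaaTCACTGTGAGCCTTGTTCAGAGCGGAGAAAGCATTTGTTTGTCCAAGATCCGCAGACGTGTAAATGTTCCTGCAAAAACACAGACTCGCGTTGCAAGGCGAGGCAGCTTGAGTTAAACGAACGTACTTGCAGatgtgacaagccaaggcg
Vegfa-201: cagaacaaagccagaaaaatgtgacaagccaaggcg
Vegfa was examined by exon after its values were seen, since its shorter forms did not reach the 10% share set for showing a gene by transcript.

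**Figure D2:**
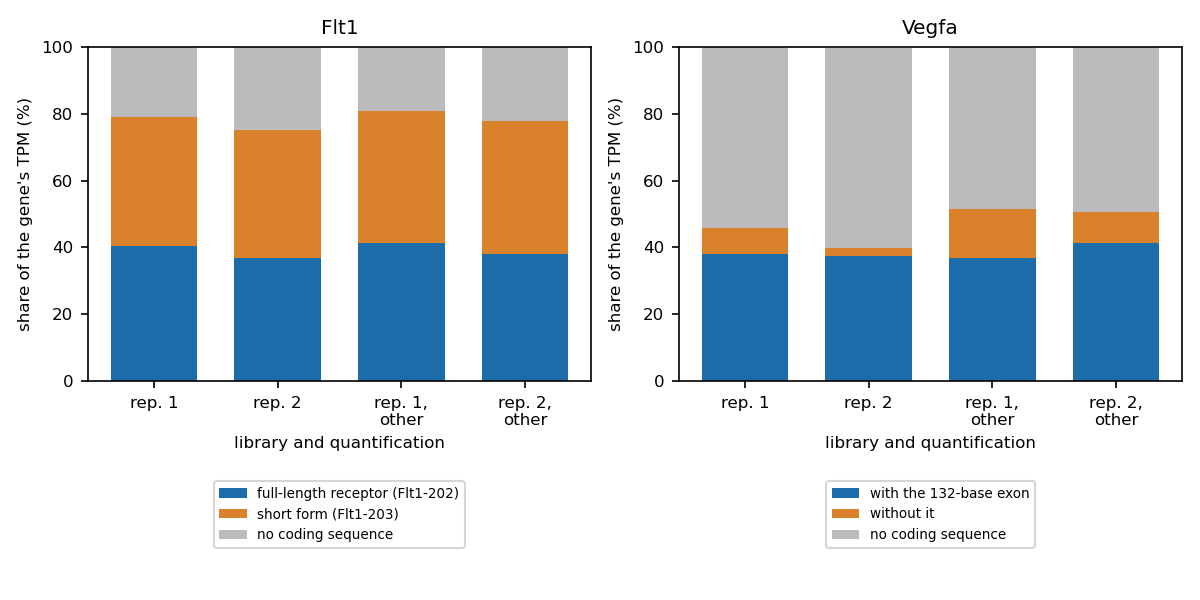
Share of the gene's TPM (%) taken by transcript classes of Flt1 and Vegfa in each library, from the table with percent of gene (rep. 1 and rep. 2) and from the other quantification (other). Full and short Flt1 hold near equal shares in all 4 bars, and the Vegfa class with the 132-base exon holds 36.9% to 41.4%.

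Of the 23 genes with a mean of 5 TPM or more, 6 had at least 2 coding lengths with 10% or more in both libraries, namely Aplnr, Eng, Flt1, Pecam1, Ramp2 and Tek. Tek-203, with 3369 coding bases, took 81.82% and 83.08% and differed from Tek-201, at 12.97% and 16.92%, by 3 coding bases. The full Aplnr-201 took 84.51% and 76.82%, and the other quantification gave it the whole of the gene in both. Eng-201 took 49.83% and 65.05%. Pecam1 and Ramp2 were the least settled: retained-intron transcripts held 1.62% and 1.01% of Pecam1 in one quantification and 39.93% and 31.93% in the other. The level in the other quantification was 2.18 times that of the main table for Ramp2, 2.13 times for Angpt2, 1.99 times for Pecam1 and Acta2 and 1.86 times for Esam, against a median of 1.48 times over detected protein-coding genes. Ramp2 shares 31.7% of its 31-base words with other genes, and its exons overlap Vps25 on the same strand.

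The receptor genes Tie1 and Tek were close to each other in level, and the angiopoietin genes Angpt1 and Angpt2 were not. Tie1 measured 7.61 and 7.36 TPM and Tek, the receptor TIE2, 6.64 and 5.23 TPM. The log2 ratio of Tek over Tie1 was -0.19 and -0.49, within 2 SD of 0. In the other quantification it was -0.38 and -0.61, with a mean beyond 2 SD. Angpt1, the TIE2 agonist that stabilises vessels, measured 5.16 and 5.71 TPM. Angpt2, which endothelial cells release where vessels are remodelled, measured 1.23 and 0.84 TPM, so Angpt1 exceeded it by 2.31 ± 0.46 on the log2 scale, a fold of 4.94 that became 3.17 with a pseudocount of 1. The coding transcript Angpt2-201 measured 0.72 and 0.80 TPM and the noncoding Angpt2-202 0.51 and 0.04 TPM, and Angpt2 as a whole had 47 and 54 counts, a log2 ratio of 0.09.

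In the apelin system the receptor exceeded the ligand. Aplnr measured 13.94 and 14.05 TPM and its ligand gene Apln, a marker of endothelial tip cells, 4.62 and 5.26 TPM, a log2 ratio of ligand over receptor of -1.49 ± 0.12. The tip cell gene Esm1, which encodes endocan, had 9 and 13 counts and 0.26 and 0.34 TPM. The PDGF pair was level: Pdgfb measured 9.58 and 8.48 TPM and its receptor Pdgfrb, which marks pericytes, 9.46 and 9.01 TPM, with log2 ratios of 0.02 and -0.09.

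The endothelial transcription factors had low levels. Sox18 measured 6.68 and 6.55 TPM and its relative Sox17, known for its part in arterial identity and barrier signalling, 3.77 and 2.75 TPM. Sox17 was lower than Sox18 in both libraries, by a log2 ratio of -1.02 ± 0.29. Foxq1, a forkhead factor enriched in brain endothelium, measured 2.28 and 1.99 TPM.

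The pericyte markers Rgs5 and Vtn were the highest of the 8 mural genes, while Abcc9 and Anpep lay near the contractile gene Acta2. Rgs5 (chr1:169655501-169695813, plus strand), a regulator of G protein signalling and a pericyte marker, measured 38.46 and 35.54 TPM. Vtn, which encodes vitronectin and is made by brain pericytes, measured 29.98 and 31.34 TPM. Abcc9, a subunit of pericyte potassium channels, measured 4.27 and 3.57 TPM, and Anpep, the aminopeptidase CD13, 4.21 and 2.47 TPM. Among the smooth muscle genes, Acta2 overlapped both Abcc9 and Anpep in range, and Myh11 was lowest. Acta2 (chr19:34241090-34255590, minus strand), the smooth muscle alpha-actin, measured 5.24 and 2.87 TPM, Tagln, which encodes transgelin, 3.46 and 2.26 TPM, and Myh11, the smooth muscle myosin heavy chain, 1.01 and 0.59 TPM. Rgs5 exceeded Acta2 by 3.22 ± 0.52 and Acta2 exceeded Myh11 by 2.19 ± 0.11 on the log2 scale. The fold of the first pair, 9.31, became 5.88 in the other quantification, and that of the second, 4.55, became 2.75 with a pseudocount of 1.

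Of the 12 gene pairs compared, 10 had the same direction in both libraries with a mean beyond 2 SD. The exceptions were Pdgfb with Pdgfrb and Tek with Tie1. The claudin gene Cldn5 exceeded Ocln by 3.72 ± 0.18. Abcb1a exceeded Abcb1b, at 1.22 and 0.55 TPM, by 1.94 ± 0.63, and Ly6c1 exceeded Ly6a by 1.79 ± 0.36; in both pairs shared sequence makes the split of reads uncertain. An exact sign test over 2 animals cannot give a p below 0.5, so no pair carries a p.

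**Figure D3:**
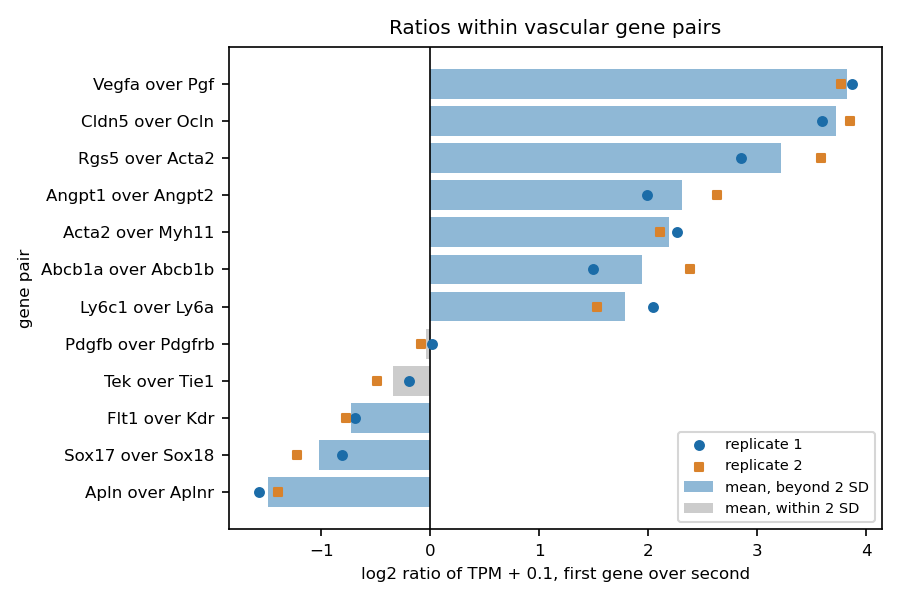
Log2 ratio of TPM + 0.1 within 12 gene pairs, with points for each library and bars for the mean, blue where the mean lies beyond 2 SD and grey where it does not. Vegfa over Pgf and Cldn5 over Ocln are the largest at 3.82 and 3.72, and Pdgfb over Pdgfrb is near 0.

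The libraries were then compared gene by gene on counts, with ratios of replicate 2 over replicate 1 scaled by TMM. An exact binomial test with Benjamini-Hochberg adjustment over 20385 genes sets 1 library against the other and bears on no condition. It called 26.7% of all genes, 12.7% lower and 13.9% higher in replicate 2. All 39 vascular genes had the 10 counts needed for the test, and 9 were called (23.1%), 8 lower (20.5%) and 1 higher (2.56%). The total share was near the background. With spike-in scaling, chosen after seeing the data, 19 of the 39 were called lower and none higher, against 34.4% of all genes called in either direction, and Bsg was no longer called. That scaling moved the median log2 ratio of all genes tested to -0.15. The share of all genes called lower with it was not counted, so the 19 are not read as particular to the vascular genes. The median log2 ratio of the 39 genes was -0.04, against -0.003 over all genes tested, and all 39 ratios lay within 2-fold. TPM was lower in replicate 2 for 29 of the 39 genes and the count ratio was negative for 23. The matching shares over all genes were not counted, so these counts are not read as particular to the vascular genes. The median log2 ratio of TPM was -0.15 for the 39 genes and -0.08 for all genes tested.

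The genes called lower were Cldn5, Ocln, Esam, Eng, Flt1, Acta2, Anpep and Myh11. Myh11 had 106.01 and 72 counts and a log2 ratio of -0.66 (SE 0.22, adjusted p = 0.0133 by the exact binomial test). Acta2 had 129 and 90 counts and a log2 ratio of -0.62 (SE 0.20, adjusted p = 0.00961 by the same exact test). Tagln, the other contractile gene, had 66 and 47 counts and a ratio of -0.59, which was not called (adjusted p = 0.0968, exact binomial test). Ocln had a ratio of -0.48 and Anpep of -0.45, and the other 4 lay between -0.30 and -0.21. Bsg was the gene called higher, with 4796 and 5601 counts and a ratio of 0.12 (SE 0.03, adjusted p = 0.000232, exact binomial test).

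Rgs5 had 2497 and 2701 counts and a log2 ratio of 0.01, and Pdgfrb had 855 and 921 counts and a ratio of 0.003. Both ratios were smaller in size than those of the 3 contractile genes, a difference that was not tested. Kdr (-0.06), Cdh5 (-0.01), Tie1 (0.01), Sox18 (0.05) and Egfl7 (0.03) had ratios near 0 too. When counting error was replaced by the spread between animals, a biological coefficient of variation of 0.109 in edgeR's exact test, none of the 39 genes was called, against 0.966% of all genes. Acta2 and Myh11 then had unadjusted p of 0.0405 and 0.0360, and no other of the 39 genes was under 0.05. These 2 genes are 5.13% of the 39, against 6.77% of all genes tested. The spread used in this test was common to all genes and was estimated from the same 2 libraries that it compares. It therefore contains the difference under test, and a gene not called is not shown to be equal between the animals.

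**Figure D4:**
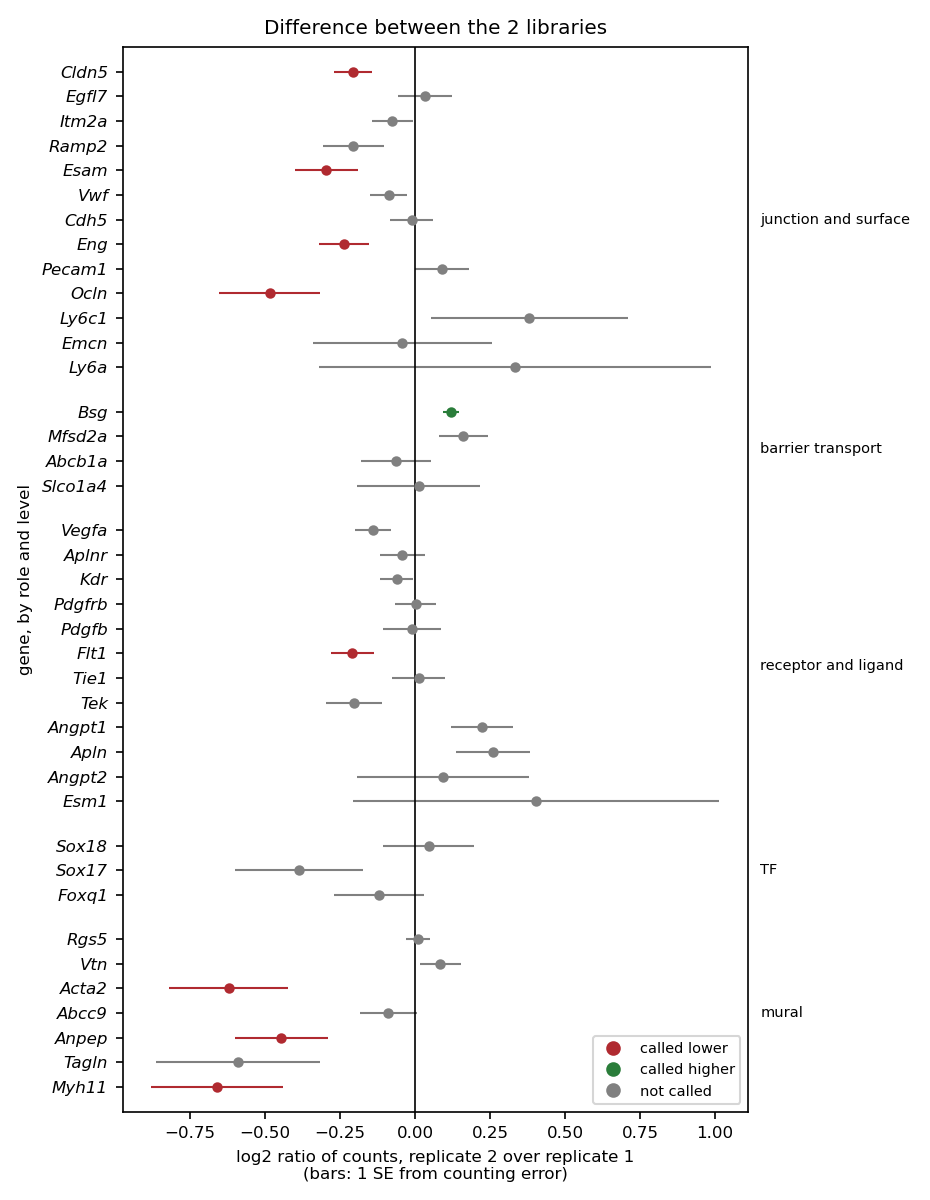
Log2 ratio of counts, replicate 2 over replicate 1, for each of the 39 genes, with bars of 1 SE from counting error; colour shows the call of the exact binomial test. The 8 genes called lower lie between -0.66 and -0.21, and Bsg, the gene called higher, lies at 0.12.

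Related vascular genes outside the list were described from 8 further lists holding 114 genes, of which 100 were detected. Of 110 tested, 25 were called lower (22.7%) and 13 higher (11.8%) in replicate 2 by the exact binomial test, against 12.7% and 13.9% of all genes, and the counts of each list below are to be read against these shares. Among 19 barrier transport and junction genes, 3 were called in each direction. The highest were the amino acid transporter subunits Slc3a2 (83.06 and 84.39 TPM) and Slc7a5 (76.28 and 80.49 TPM), the scaffold gene Tjp1 (50.43 and 50.21 TPM) and the transferrin receptor gene Tfrc (38.58 and 49.84 TPM). All of these are also expressed outside vessels. Plvap, a marker of leaky fenestrated vessels that lack the barrier, was chosen after its values were seen and measured 3.67 and 4.15 TPM.

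In the list of 16 VEGF, angiopoietin, apelin, adrenomedullin and PDGF genes, 12 were detected, and 2 were called in each direction. Vegfb measured 37.20 and 35.39 TPM, close to Vegfa. The VEGF co-receptor genes Nrp1 (26.79 and 21.93 TPM) and Nrp2 (24.96 and 32.28 TPM), which also serve axon guidance, were called in opposite directions, and the lymphatic receptor gene Flt4 measured 2.08 and 1.54 TPM. The 13 genes of Wnt and Norrin signalling, which induces the barrier, were all detected, with 4 called lower and 4 higher. The ligand gene Wnt7b measured 32.80 and 35.68 TPM, and the Norrin receptor gene Fzd4 was lowest at 2.54 and 2.56 TPM. The genes called lower there were Tspan12, Adgra2, Lrp5 and Lef1, and those called higher were Apcdd1, Wnt7b, Axin2 and Wnt7a.

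Of 12 further endothelial transcription factors 11 were detected, led by Ets1 (13.22 and 11.90 TPM) and the flow-responsive factor Klf2 (7.56 and 5.29 TPM), with 2 called lower. All 12 further surface genes were detected, led by the sphingosine phosphate receptor gene S1pr1 (13.75 and 15.24 TPM) and Cd93 (13.43 and 11.83 TPM), with 2 called lower and 1 higher. In the list of 12 arterial and venous genes, the arterial ligand gene Efnb2 (76.42 and 74.14 TPM) and the venous factor gene Nr2f2 (34.31 and 30.27 TPM) are also made by neurons, and 2 genes were called lower and 1 higher. Ackr1, a marker of venules, was listed at 67.94 and 59.60 TPM, but its gene overlaps exons of Cadm3 on the same strand, so that value is uncertain.

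Among 18 further mural genes, 13 were detected and 3 were called lower and 2 higher. Notch3, the receptor that maintains mural cells, measured 10.90 and 10.64 TPM, and Cspg4, the NG2 proteoglycan shared by pericytes and oligodendrocyte precursors, 10.92 and 9.85 TPM. The genes called lower were Cspg4, Myl9 and Tbx18, and those called higher were Mcam and Kcnj8. The smooth muscle light chain gene Myl9 measured 9.30 and 6.21 TPM, and Mcam 6.83 and 9.17 TPM. Kcnj8, the channel partner of Abcc9, measured 2.10 and 2.76 TPM. The contractile genes Mylk, Tpm2 and Lmod1 were not called, at log2 ratios of 0.07, -0.28 and -0.30. The 12 basement membrane genes were all detected, and 7 were called lower and none higher, against 12.7% and 13.9% of all genes. Col4a1 and Col4a2, the collagen chains of the vessel basement membrane, measured 70.85 and 60.51 TPM and 48.60 and 42.42 TPM. The median log2 ratio of the 12 genes was -0.12, and the largest in size was -0.37, for Lama2. None was called with the spread between animals, which was estimated from the same 2 libraries.

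Markers of other cell types differed between the libraries as well. The 6 neuronal markers summed to 2002 TPM in replicate 1 and 2115 in replicate 2, and the 6 astrocyte markers to 361 and 380 TPM. In both lists 5 of 6 were called higher by the exact binomial test, which called 12.7% of all genes lower and 13.9% higher. The 6 red blood cell genes summed to 216 and 456 TPM, with 5 called higher, and the 6 markers of other white blood cells to 2.86 and 1.44 TPM, with Ly6g at 0 counts in both libraries and Cd3e at 0 and 3. The meningeal fibroblast markers summed to 471 and 441 TPM. Of the 7, Col1a1, Col1a2, Col3a1 and Dcn were called lower, and Ptgds was called higher. Markers of olfactory bulb output neurons (7.45 and 37.3 TPM), striatum (65.7 and 102 TPM) and choroid plexus (2.75 and 35.2 TPM) were higher in summed TPM in replicate 2, with 3 of 3, 5 of 5 and 2 of 4 tested genes called higher. The choroid plexus sum was mostly Ttr (1.03 and 32.43 TPM), the only detected gene of that list. Its other genes were all below 1 TPM. By TPM, Kcnj13, Folr1 and Clic6 were higher in replicate 2 and Kl and Otx2 lower. Folr1 had 3 and 6 counts, Otx2 3 and 5 and Kl 45 and 48, so these directions are not resolved. The 4 skeletal muscle markers summed to 3.82 and 4.60 TPM, with Ckm at 0 and 1 counts. The 7 microglia and macrophage markers summed to 44.7 and 46.7 TPM. With the spread between animals, the only markers called in these lists were Hbb-bs, Hba-a1, Hba-a2, Hbb-bt, Ttr, Cdhr1, Eomes, Tbx21 and Ppp1r1b. What part the differences in these markers had in the ratios of the vascular genes was not tested.

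**Figure D5:**
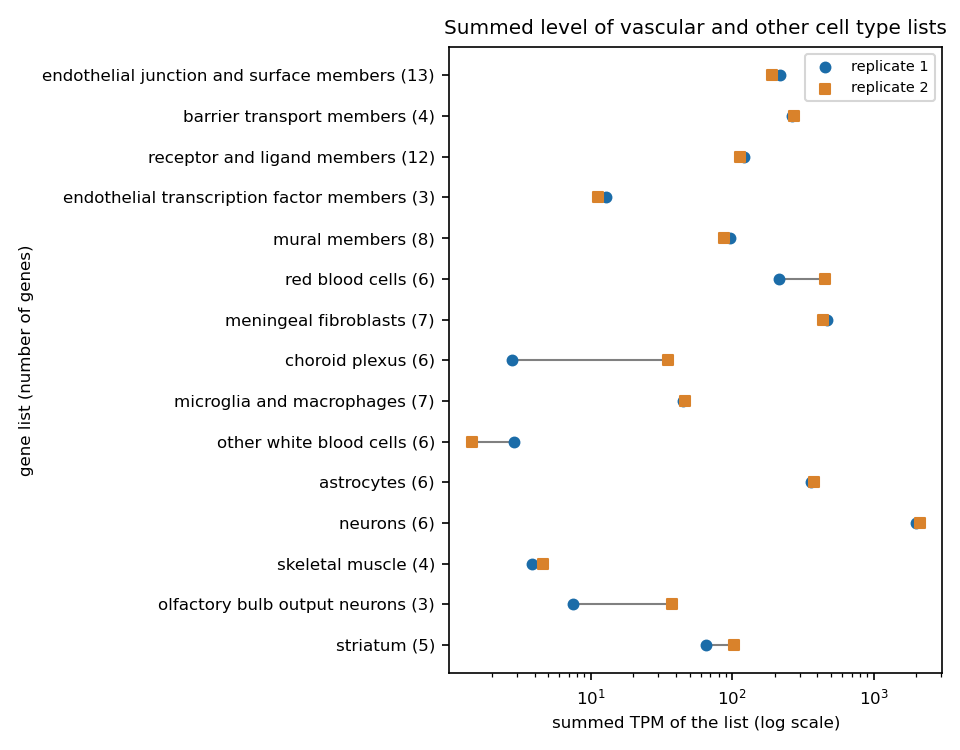
Summed TPM on a log scale of the vascular gene lists and of marker lists of other cell types in replicate 1 (circles) and replicate 2 (squares), with the number of genes in brackets. The vascular lists are lower in replicate 2, for example 218 and 191 TPM for junction and surface genes and 96.1 and 87.7 TPM for mural genes. The exception is barrier transport, at 266 and 274 TPM. Over all genes tested, TPM was lower in replicate 2 too, at a median log2 ratio of -0.075. Choroid plexus (mostly Ttr), olfactory bulb and red blood cell lists are higher in replicate 2.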

How the data were processed

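Total RNA was measured in 2 libraries of 1 group. Per the file headers, the authors deposited a gene table with expected counts, TPM, posterior mean TPM and TPM bounds, a transcript table with the same values and each transcript's percent of its gene, and another transcript table with estimated counts and TPM, called the other quantification here. The deposited TPM bounds are on the signal scale of TPM and entered no result. The notes with the files name mm10 and GENCODE M21; the sources used here do not give the aligner, the quantifiers or whether strand was used. Reads of the CAST allele were set against mm10.

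Spike-in rows (97; 0.323% and 0.351% of counts) and 26248 rows with a numeric identifier and no gene (6 and 2 counts) stayed out of library sizes and tests. Libraries were scaled with TMM of edgeR 4.0.16 (R 4.3.3). Expected counts were rounded, and a two-sided exact binomial test was run for genes with 10 or more counts in total, adjusted by Benjamini-Hochberg at 0.05 (scipy 1.17.1). Ratios used a prior count of 0.5, and their SE covers counting error only. A count of 0 allows up to 3 counts, which is 0.112 and 0.102 CPM. The test was tried on simulated data with known answers. In that comparison of the 2 libraries, 97.5% of 200 genes changed 2-fold were recovered among 20403 genes, and 16 unchanged genes were called. The changed genes were drawn from those with 200 or more counts in total, and only counting error was simulated. The recovery therefore does not cover genes with fewer counts or smaller changes. Its p-values cover counting error between these 2 libraries.

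For a pair to be called, its log2 ratio of TPM + 0.1 had to keep its sign across the libraries, with a mean beyond 2 SD. Coding lengths leave out the stop codon. Genes were shown by transcript at a mean of 5 TPM or more with at least 2 coding lengths of 10% or more. Named genes are all 39 members, up to 4 highest and the lowest detected of each further list, and the pair genes; others were chosen after their values were seen. The members and lists were chosen with earlier results of these data known. Alternatives were another quantification, posterior mean TPM, thresholds, scalings (total counts, DESeq2 1.42.0, ERCC), pseudocounts and leaving out a library. Sequences came from GENCODE M21 transcripts and RefSeq.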

Additional observations from a re-analysis of the deposited data

How the results depend on the processing

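The 35 detected genes became 36 in the other quantification and 38 at 0.5 TPM or with TPM taken over protein-coding genes, and 36 to 37 with 1 library left out. The median level of 7.49 TPM became 11.1 in the other quantification, 9.03 over detected genes and 14.1 over protein-coding genes; without replicate 1 or 2 it was 7.36 to 7.61. Of the 9 genes called between libraries, all 9 were called with total counts, DESeq2 size factors and protein-coding TMM (Vegfa was added under the first and the last) and with no count minimum, and 6 in the other quantification, which lost Eng, Esam and Flt1 and added Apln. Of all genes, 25.9% were called in either direction with total counts, 27.4% with DESeq2 size factors and 26% with protein-coding TMM. The share was 17.6% with no count minimum and 28.4% in the other quantification. With spike-in scaling, an alternative chosen after seeing the data, 19 of the 39 were called, all lower, against 34.4% of all genes in either direction. They included 8 of the 9, and Bsg was lost. The share of all genes called lower with that scaling was not counted. With edgeR's exact test and the spread between animals 0 were called, with 2 (5.13%) at an unadjusted p under 0.05, against 6.77% of all genes. That spread was estimated from the same 2 libraries, so a gene not called is not shown to be equal. The median log2 ratio of -0.04 ranged from -0.07 to -0.03, except for -0.19 with spike-in scaling, which moved all genes by a like amount (median -0.15). Gene pairs called were 10 with a pseudocount of 1 and 11 in the other quantification, which added Tek with Tie1. The fold of Abcb1a over Abcb1b fell from 3.83 to 2.40 and that of Ly6c1 over Ly6a from 3.46 to 2.26 with a pseudocount of 1. Posterior mean TPM moved 10 of 39 levels by more than their SD and 2 by over 1.5 times, Abcb1a from 3.46 to 5.36 and Ly6a from 0.905 to 1.43 TPM. Ratios changed sign in the other quantification for Pdgfb (0.11), Ramp2 (0.15) and Ly6a (-0.26), and with total counts for Pdgfrb (-0.026), Rgs5 (-0.020), Slco1a4 (-0.017) and Tie1 (-0.017); none of these was called in either fit. Transcript shares moved by more than their SD in 16 of 23 classes in the other quantification, and the cause was not tested. With 2 animals the SD is imprecise, and Ly6a and Esm1 rest on few counts.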
